A study of Mus musculus with 4 samples.

Results

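Arterial and arteriolar endothelium lines the vessels that carry blood from the renal artery to the glomeruli and on to the medulla. It was isolated here from single-cell RNA libraries of injured mouse kidneys, by the genes each cell expressed. Members were chosen by measured expression, that is, a cell was taken when it had UMIs (unique molecular identifiers, each 1 counted RNA molecule) of at least 3 of 7 endothelial genes (Pecam1, Kdr, Emcn, Egfl7, Flt1, Cdh5 and Eng), none of the leukocyte gene Ptprc, and UMIs of at least 2 of 5 arterial genes (Gja5, Gja4, Sox17, Fbln5 and Bmx). By this rule 894 cells were members, of 8063 cells that passed the endothelial part of it and of 40939 cells kept in all. The 894 cells comprised 125, 169, 431 and 169 cells of mice 1 to 4.

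The study profiled kidneys of 4 wild-type mice on the 10x Genomics platform. Each mouse had CIAKI, contrast-induced acute kidney injury, in which radiographic contrast media impair the kidney. All 4 mice belong to this 1 group and, per the labels, to 1 batch. No uninjured mice were analysed here, so every comparison below sets cells of the same injured kidneys against each other and none measures an effect of contrast. Strain, sex, age, contrast agent, dosing and sampling time are not stated in the labels.

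Arterial endothelium is specified by SOXF factors such as Sox17 and by Notch signalling, and its cells are coupled by gap junctions built from the connexins that Gja4 and Gja5 encode. It senses flow, releases vasodilators and the vasoconstrictor endothelin, and rests on elastic fibres. In the kidney it includes the afferent and efferent arterioles and the descending vasa recta, which differ from the fenestrated capillaries of the glomerulus and of the tubule bed.

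The 4 libraries held 8790 to 17312 barcodes and 36831995 to 105436725 UMIs, and kept cells had a median of 2077 UMIs in mouse 4 and 5549 to 5815 in the other mice. Mouse 4 also stood apart in the arterial cells by its share of ribosomal protein UMIs, with medians of 2.86, 3.1, 3.77 and 11.4% in mice 1 to 4. Mice 1, 2 and 3 shared 23 to 54 cell barcodes in each pair, while mouse 4 shared 1 with mouse 2 and 0 with mice 1 and 3. Members were more deeply covered than the rest of the endothelium in every mouse, with median UMI counts of 8243, 7945, 7217 and 2876 in members of mice 1 to 4 and 4857, 6384, 3689 and 2006 in other endothelial cells. A rule that counts detected genes favours deep cells. Results for cells thinned to 1000 UMIs are also given for some genes and lists, not for every change. Among genes named by a fixed rule (see the processing section) and still tested, 66 kept their call against other endothelium and 15 lost it. Thinned tests and detection shares kept the members chosen at full depth, so they do not address that choice. Only for the shares of members was the rule applied anew to thinned cells.

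Arterial endothelium made up 1.76%, 1.91%, 3.34% and 1.40% of the kept cells of mice 1 to 4 (2.10% ± 0.853, SD, n = 4) and 15.0%, 10.0%, 12.1% and 8.48% of the endothelial cells (11.4% ± 2.83, SD, n = 4). The exact (Clopper-Pearson) 95% intervals of the shares of endothelial cells ran from 12.7% to 17.6%, 8.63% to 11.6%, 11.1% to 13.3% and 7.30% to 9.79%. Mouse 1 had the highest share of its endothelium in the arterial class and mouse 3 the highest share of all its cells. When the rule was applied to cells thinned to 1000 UMIs, 186 cells passed, 0.497% of the kept cells and 2.96% of the endothelium on average, so the absolute share depends on depth. Intervals cover counting error alone.

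The 5 arterial genes were detected unequally among the members. Sox17, a SOXF transcription factor, had UMIs in 819 of the 894 cells and Fbln5, which encodes the elastic fibre protein fibulin 5, in 711. Gja4 (connexin 37) followed with 434 cells, the tyrosine kinase gene Bmx with 180 and Gja5 (connexin 40) with 129. Sox17 with Fbln5 and no other arterial gene was the most frequent combination, in 324 cells (36.2%), followed by Gja4, Sox17 and Fbln5 in 159 and Gja4 with Sox17 in 121. All 5 genes together were found in 29 cells.

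These genes chose the cells, so their levels are given as a description. Sox17 was present at 781, 533, 411 and 1243 CPM (the usual per-million scaling of UMI counts to the total of the class) in arterial endothelium of mice 1 to 4, against 66.7, 63.3, 56.5 and 127 CPM in other endothelium. Fbln5 was at 729, 608, 422 and 455 CPM in arterial endothelium, against 28.6, 26.9, 25.8 and 8.65 CPM in other endothelium. Gja4 was at 169, 115, 117 and 327 CPM in arterial endothelium, against 7.58, 5.55, 9.53 and 7.48 CPM in other endothelium. The classes did not overlap for any of these 3 genes, a separation that follows from the rule. Gja5 was at 139, 81.7, 12 and 109 CPM in arterial endothelium, against 3.54, 0.822, 0.924 and 0.468 CPM in other endothelium, and mouse 3, with the most arterial cells, had the least of it. Gja5 UMIs were found in 23.2%, 18.9%, 7.66% and 20.7% of arterial cells of mice 1 to 4, in 0.110% to 0.707% of other endothelial cells and in 0.0461% to 0.709% of cells with no endothelial gene detected. Bmx UMIs were found in 25.6%, 20.1%, 17.4% and 23.1% of arterial cells of mice 1 to 4, against 0% to 0.395% of other endothelial cells. In cells with no endothelial gene detected the shares of Bmx were 20.1% and 23.5% in mice 1 and 2, close to those of the arterial cells, and 1.57% and 0.565% in mice 3 and 4. Sox17 was the gene found most widely in other endothelium, in 13.8% to 25.0% of its cells, against 88.2% to 95.3% of arterial cells.

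Cells on either side of the threshold of 2 arterial genes formed a gradient in mean Edn1 and Plvap levels. Endothelial cells with 0, 1, 2 and 3 or more of the 5 genes numbered 5517, 1652, 547 and 347, with median UMI counts of 2907, 5343.5, 6204 and 7244. Mean Edn1 levels in these cells were 21.6, 71.5, 251 and 646 CPM, and mean Plvap levels were 3018, 2436, 983 and 301 CPM. Mean Mgp levels were 28.1, 392, 822 and 2746 CPM, without a steady rise in every mouse. In mouse 1 Mgp fell from 220 to 123 CPM between 1 and 2 genes. In mouse 3 it fell from 609 to 288 CPM between 2 genes and 3 or more. A further 115 cells met every other condition and were left out for a Ptprc UMI, and 15 had 2 endothelial genes in place of 3.

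The label was checked against markers the rule did not use. Plvap, the diaphragm protein of fenestrated and caveolated capillaries, had UMIs in 64.8, 69.8, 45.7 and 51.5% of arterial cells of mice 1 to 4 and 86.8, 94, 66.8 and 94.1% of other endothelial cells, against 2.87% to 13.6% of cells with no endothelial gene. Ehd3, a gene of the glomerular capillary, had UMIs in 48.8, 51.5, 20.6 and 8.28% of arterial cells and 51.5, 55.6, 14.7 and 17.8% of other endothelial cells, against 1.59% to 4.42% of cells with no endothelial gene, whose median depth was 2007 to 5249.5 UMIs. Neither gene was detected in 16 of 125, 29 of 169, 188 of 431 and 75 of 169 arterial cells of mice 1 to 4, so that most members of each mouse held a transcript of at least 1 of these capillary genes. The summed level of 10 smooth muscle and pericyte markers was 669, 654, 781 and 131 CPM in arterial endothelium of mice 1 to 4, against 97.3, 281, 851 and 171 CPM in other endothelium. It was higher in arterial endothelium in mice 1 and 2, where 1 cell held 54.9% and 89.1% of the Acta2 UMIs, and lower in mice 3 and 4. Of the 7 lymphatic markers, Ccl21a and Mmrn1 had 0 UMIs in the members, and the summed level of the list was 75.4, 64.4, 80.8 and 23.8 CPM in arterial endothelium, against 166, 164, 162 and 238 CPM in other endothelium. At least 2 of 6 neutrophil markers were found in 40.0% and 71.6% of arterial cells of mice 1 and 2, and in 42.1% and 66.5% of other endothelial cells there.

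Members were first compared with the 7169 endothelial cells that had fewer than 2 arterial genes, by summing counts per mouse and class and testing with edgeR with the mouse as a block. Arterial endothelium expressed more Edn1 (endothelin 1), Jag1 and Jag2 (Notch ligands), Eln and Fbn1 (elastic fibre proteins) and Cldn5 (claudin 5), and less of the capillary genes Plvap, Rgcc and Esm1. Of 12157 genes tested, 1477 passed an adjusted p of 0.05 (12.1%), 715 of them higher (5.88%) and 762 lower (6.27%) in arterial endothelium, and the median log2 fold change of all genes was -0.02. Without the mouse as a block, which takes no account of both classes coming from the same kidney, 33 genes passed. After thinning to 1000 UMIs per cell, 856 genes passed. Leaving out mouse 1 or mouse 2 left 866 and 840.

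**Figure D1:**
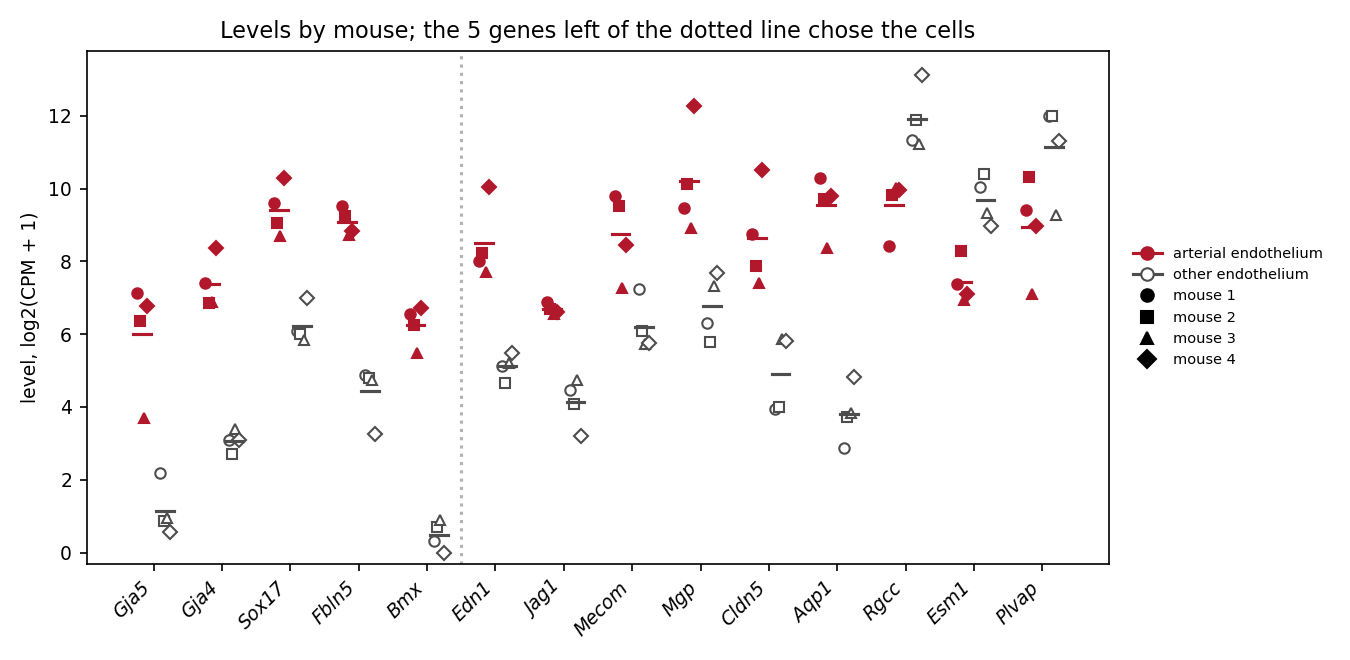
Levels of 14 genes as log2(CPM + 1), arterial endothelium on the left of each pair (filled red) and other endothelium on the right (open grey), 1 symbol per mouse with the mean as a bar. Edn1, Jag1, Cldn5 and Aqp1 lay above other endothelium in all 4 mice with no overlap, Rgcc and Esm1 lay below it, and the 5 genes left of the dotted line chose the cells.

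Of the 26 tested genes of a list of other arterial genes, 11 rose and 3 fell in arterial endothelium. These counts stand beside 5.88% and 6.27% of all genes, and the list median log2 fold change was 0.40. The genes that rose were Efnb2, Jag1, Jag2, Cxcl12, Sema3g, Vegfc, Mecom, Alox12, Edn1, Cytl1 and Slc6a6. Edn1, which encodes the precursor of the vasoconstrictor endothelin 1, was at 258, 297, 208 and 1061 CPM in arterial endothelium of mice 1 to 4, against 34.1, 24.5, 35.8 and 44 CPM in other endothelium. Mouse 4 had by far the most, and every arterial value lay above every other endothelial one (log2 fold change 3.40 ± 0.30, SE, adjusted p = 0.000151). Mecom, a zinc finger transcription factor of arterial endothelium, was at 888, 735, 153 and 349 CPM in arterial endothelium, against 149, 66.4, 52.5 and 53.3 CPM in other endothelium (log2 fold change 2.58 ± 0.27, adjusted p = 0.00033). It was higher in mice 1 and 2 than in mice 3 and 4 in the arterial cells. Cxcl12, a chemokine of arterial endothelium, reached 24.9 to 97.1 CPM in arterial endothelium and 2.53 to 5.04 CPM in other endothelium (log2 fold change 3.16 ± 0.35, adjusted p = 0.00044). Sox7, Cryab and Tsc22d1 were the members of the list that fell. The calls of Efnb2 without mouse 2, of Cytl1 without mouse 2 or 4, of Tsc22d1 without mouse 1, 2 or 4 and of Sox7 without any 1 of the 4 mice were lost.

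Within the Notch pathway, the ligand genes Jag1 and Jag2 passed the test, and Dll4 and the receptor genes Notch1 and Notch4 did not. Jag1 was at 118, 103, 93.6 and 97.1 CPM in arterial endothelium, nearly level across mice 1 to 4, against 21.2, 15.8, 26 and 8.19 CPM in other endothelium (log2 fold change 2.52 ± 0.23, adjusted p = 0.000165). Jag2 was at 97.4, 85.2, 54.6 and 88.6 CPM in arterial endothelium, against 42.7, 33.1, 13.9 and 23.9 CPM in other endothelium (log2 fold change 1.59 ± 0.15, adjusted p = 0.000198). Notch1 had a log2 fold change of 0.22 ± 0.12, Notch4 of 0.01 ± 0.11 and the ligand gene Dll4 of -0.11 ± 0.24, with adjusted p of 0.308, 0.983 and 0.859. Of 16 tested genes of the pathway, Jag1 and Jag2 rose, and Lfng, a glycosyltransferase that modifies Notch, and the coactivator gene Maml2 fell. The list median was -0.12, and 12.1% of all genes were called. The fall of Lfng was lost when mouse 1, 2 or 4 was left out, and that of Maml2 when any 1 of the 4 mice was left out.

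The promoters of Gja4, Edn1 and Aqp1 are shown because these genes marked the arterial cells, 1 by the rule and 2 by their levels. Each is the 250 bases before the transcription start in RefSeq's GRCm38.p6 annotation, 5′ to 3′ on the gene's strand, with capitals marking the SOX core motif ATTGT or the RBPJ motif TGGGAA on either strand. RBPJ is the DNA-binding partner of Notch.
Gja4 (chr4:127314040-127314289, minus strand): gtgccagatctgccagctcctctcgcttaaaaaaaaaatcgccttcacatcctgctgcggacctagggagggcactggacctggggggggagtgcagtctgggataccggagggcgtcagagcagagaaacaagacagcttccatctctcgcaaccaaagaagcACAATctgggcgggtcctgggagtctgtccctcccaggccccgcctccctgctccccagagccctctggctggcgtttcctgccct
Edn1 (chr13:42301226-42301475, plus strand): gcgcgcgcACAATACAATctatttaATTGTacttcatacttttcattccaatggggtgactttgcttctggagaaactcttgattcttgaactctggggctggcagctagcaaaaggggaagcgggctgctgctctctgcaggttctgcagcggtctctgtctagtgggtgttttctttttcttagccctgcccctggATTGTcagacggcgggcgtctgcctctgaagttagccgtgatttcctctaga
Aqp1 (chr6:55336049-55336298, plus strand): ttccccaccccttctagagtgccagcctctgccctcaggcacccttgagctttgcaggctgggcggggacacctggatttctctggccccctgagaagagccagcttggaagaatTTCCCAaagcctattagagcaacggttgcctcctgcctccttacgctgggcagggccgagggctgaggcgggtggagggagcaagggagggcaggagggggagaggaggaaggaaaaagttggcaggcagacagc
The Edn1 window held 4 SOX core matches that do not overlap, the Gja4 window 1, and the Aqp1 window 1 RBPJ match. ATTGT occurred in 27.7% and TGGGAA in 21.6% of 32851 such windows of all genes, so a single match is common. A match describes the letters and no more. The windows of Jag1, Gja5, Cldn5 and Efnb2 held 1, 0, 0 and 0 SOX core matches, and 0 RBPJ matches each. The build to which the deposited counts were aligned is not stated in the labels or headers.

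Of 22 tested genes of BMP and TGF-beta signalling, 6 rose and 1 fell, beside 5.88% and 6.27% of all genes. The list median was -0.06, and 15 did not pass. Tgfb2 and Bmp2 encode secreted ligands. Tgfb2 was at 54.2, 50.6, 19.1 and 18.7 CPM in arterial endothelium, against 7.33, 4.83, 9.39 and 2.57 CPM in other endothelium (log2 fold change 2.42 ± 0.39, adjusted p = 0.00337, and 3.13 without mouse 3). Bmp2 was at 44.1, 16.6, 17.5 and 29 CPM in arterial endothelium, against 4.8, 4.73, 6.83 and 3.27 CPM in other endothelium (log2 fold change 2.22 ± 0.35, adjusted p = 0.00296). Acvrl1, the ALK1 receptor of circulating BMPs, rose by a log2 fold change of 1.20 ± 0.16, and Ltbp4, which tethers latent TGF-beta to the matrix, by 1.18 ± 0.15. Smad6 and Id1, targets of BMP signalling, were the other genes that rose, and Ltbp1 fell. The call of Smad6 was lost without mouse 1 or 2 and that of Id1 without mouse 1.

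Of 27 tested elastic fibre and matrix genes, 6 rose and 5 fell, beside 5.88% and 6.27% of all genes. The list median was -0.06, and 16 did not pass. Eln (elastin), Fbn1 (fibrillin 1), Fbln2 (fibulin 2), Ltbp4, Mgp and the basement membrane collagen gene Col18a1 rose. Bgn, which encodes the proteoglycan biglycan, and the basement membrane genes Col4a1, Col4a2, Nid1 and Nid2 fell. Mgp, which encodes matrix Gla protein, an inhibitor of vascular calcification, was at 707, 1119, 482 and 4967 CPM in arterial endothelium, against 78.8, 53.8, 159 and 203 CPM in other endothelium. Mouse 4 was the highest and mouse 3 the lowest in arterial endothelium, yet the classes did not overlap (log2 fold change 3.48 ± 0.47, adjusted p = 0.00142, and 4.11 without mouse 3). The 35 members with exactly 3 endothelial genes held Mgp at 1716, 5559, 10295 and 3949 CPM in mice 1 to 4. Edn1 was at 45.2, 12.3, 0 and 1580 CPM in these cells, and their part in the Mgp level was not tested. Eln was at 214, 257, 29.8 and 296 CPM in arterial endothelium, against 52.3, 38.9, 7.18 and 28.3 CPM in other endothelium, so that mouse 3 stood low in both classes (log2 fold change 2.56 ± 0.22, adjusted p = 0.000111). Fbn1 was at 25.5 to 65.2 CPM in arterial endothelium and 3.04 to 9.95 CPM in other endothelium, a log2 fold change of 3.05 ± 0.23. Fbln2 was at 34.1 to 147 CPM in arterial endothelium and 3.77 to 12.4 CPM in other endothelium, a log2 fold change of 3.25 ± 0.27. The 5 lower calls of the list were 3 without mouse 1, 1 without mouse 2 and 2 without mouse 4. Beside these matrix genes, the fibroblast marker Col1a2 rose (1.89). The 6 fibroblast markers summed to 25.4, 65.8, 296 and 15.3 CPM in arterial endothelium, against 15.7, 24, 53 and 29.2 CPM in other endothelium. In mouse 3, 1 of the 431 arterial cells held 86.3% of the Col1a2 UMIs and 1 held 99.5% of the Col1a1 UMIs. In mouse 1, 1 cell held 75.0% of the Col1a2 UMIs. The part of these markers in the result was not tested.

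Cldn5, the main claudin of endothelial tight junctions, was at 431, 231, 168 and 1467 CPM in arterial endothelium, against 14.4, 15.1, 57.1 and 54.7 CPM in other endothelium. The highest value was that of mouse 4, and no values overlapped (log2 fold change 3.77 ± 0.52, adjusted p = 0.00159). Without mouse 3 the log2 fold change of Cldn5 was 4.55. Cldn5 UMIs were found in 37.6%, 17.8%, 28.8% and 57.4% of arterial cells, in 4.33% to 7.66% of other endothelial cells and in 0.461% to 5.17% of cells with no endothelial gene. In cells thinned to 1000 UMIs the shares were 12.3% to 46.9% in arterial endothelium and 1.26% to 3.32% in other endothelium. The junctional adhesion gene Jam2 also rose (1.32 ± 0.11), Jam3 fell, a call lost without mouse 1, 2 or 4, and the other 7 of 10 junction genes did not pass.

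Genes of vascular tone changed in both directions, 5 higher and 5 lower of 23 tested, beside 5.88% and 6.27% of all genes. The list median was 0.10. Edn1, Nos3, Ace, Cav1 and Ddah2 rose. Nos3, the endothelial nitric oxide synthase gene, was at 242, 209, 489 and 179 CPM in arterial endothelium, against 153, 149.5, 223 and 97.3 CPM in other endothelium (log2 fold change 0.80 ± 0.12, adjusted p = 0.00265). Ace, which encodes the enzyme that makes angiotensin II, was at 24.6, 18, 4.37 and 25.5 CPM in arterial endothelium, against 1.52, 2.77, 3.2 and 1.64 CPM in other endothelium, low in mouse 3 and not past the threshold when mouse 1, 2 or 4 was left out (log2 fold change 2.54 ± 0.55, and 3.40 without mouse 3). Ednrb (the endothelin B receptor), Ptgs1 (cyclooxygenase 1), Ramp3, Npr1 and Apln fell. The calls of Ddah2, Ramp3 and Npr1 were each lost without mouse 1 or 2. Apln, the apelin peptide of angiogenic endothelium, was at 39, 6.93, 4.37 and 0 CPM in arterial endothelium, against 83.9, 60.9, 50.6 and 13.6 CPM in other endothelium (log2 fold change -2.45 ± 0.40, adjusted p = 0.00381), and its log2 fold change was -3.47 without mouse 1 and -1.85 without mouse 3.

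Calcium and potassium channel genes were called in both directions. Trpv4, a flow-sensitive calcium channel, was at 52.5, 37.4, 98.3 and 30.7 CPM in arterial endothelium, against 9.1, 4.01, 17.3 and 10.1 CPM in other endothelium (log2 fold change 2.51 ± 0.21, adjusted p = 0.000114). Kcnn4, the calcium-activated potassium channel of endothelial hyperpolarization, was low in both, at 5.08 to 10.2 CPM in arterial endothelium and 0.103 to 2.34 CPM in other endothelium (log2 fold change 3.09 ± 0.50). The endoplasmic reticulum calcium pump gene Atp2a3 was at 70.3, 87.3, 14.7 and 44.3 CPM in arterial endothelium, against 11.4, 4.21, 3.77 and 3.51 CPM in other endothelium (log2 fold change 3.12 ± 0.36). Kcnj8, a subunit of ATP-sensitive potassium channels, went the other way, at 8.47, 9.7, 20.5 and 1.7 CPM in arterial endothelium, against 45.5, 77.1, 182 and 55.2 CPM in other endothelium (log2 fold change -3.10 ± 0.20, adjusted p = 4.04e-05). With the inositol trisphosphate receptors Itpr2 and Itpr3, 5 of 15 channel genes rose and 2 fell, beside 5.88% and 6.27% of all genes. The list median was 0.24, and 2 genes rose and 2 fell after thinning to 1000 UMIs.

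Of 15 flow-responsive genes, 7 rose (Klf2, Klf4, Nos3, Procr, Slco2a1, Trpv4 and Pi16) and 3 fell (Cyp1b1, Tek and Mef2a). These counts stand beside 5.88% and 6.27% of all genes, with a list median of 0.02. The call of Cyp1b1 was lost without mouse 1, 3 or 4, that of Tek without mouse 1, 2 or 4, that of Mef2a without mouse 2 or 4 and that of Procr without mouse 1 or 4. Klf2, a transcription factor induced by laminar flow, was at 3105, 2716, 2578 and 6037 CPM in arterial endothelium, against 1994, 1866, 1623 and 3708 CPM in other endothelium (log2 fold change 0.64 ± 0.11, adjusted p = 0.00358). Klf4, a related factor, was at 1040.3, 863, 437 and 639 CPM in arterial endothelium, against 522, 400.0, 189.6 and 264 CPM in other endothelium (log2 fold change 1.15 ± 0.10, adjusted p = 0.000144). Both classes had most Klf2 in mouse 4 and most Klf4 in mouse 1. Slco2a1, the prostaglandin transporter, rose by a log2 fold change of 1.57 ± 0.24.

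Immediate early genes, which are transcribed within minutes of a stimulus, had 13 higher and 0 lower calls of 17 tested. This was the largest share of higher calls among the lists plotted by their counts, beside 5.88% of all genes. The list median was 0.90. Fos was at 3651, 1824, 1719.8 and 4464 CPM in arterial endothelium, against 1342, 777, 1208 and 1551 CPM in other endothelium (log2 fold change 1.18 ± 0.18, adjusted p = 0.00253). Nr4a1, a nuclear receptor gene, was at 134, 77.6, 283 and 114 CPM in arterial endothelium, against 56.6, 35.2, 114 and 42.3 CPM in other endothelium (log2 fold change 1.27 ± 0.11, adjusted p = 0.000108). Egr3 rose by 1.89 ± 0.30, Ier2 by 1.37 ± 0.16 and Atf3 by 1.30 ± 0.26 on the log2 scale, and the call of Atf3 was lost without mouse 1, 2 or 4. The count was 7, 8, 14 and 9 without mice 1, 2, 3 and 4 in turn and 13 after thinning to 1000 UMIs. Heat shock genes had 1 higher (Dnajb1) and 1 lower (Cryab) of 14 tested, beside the 12.1% of all genes that were called. The call of Dnajb1 was lost without mouse 1, 2 or 4.

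**Figure D2:**
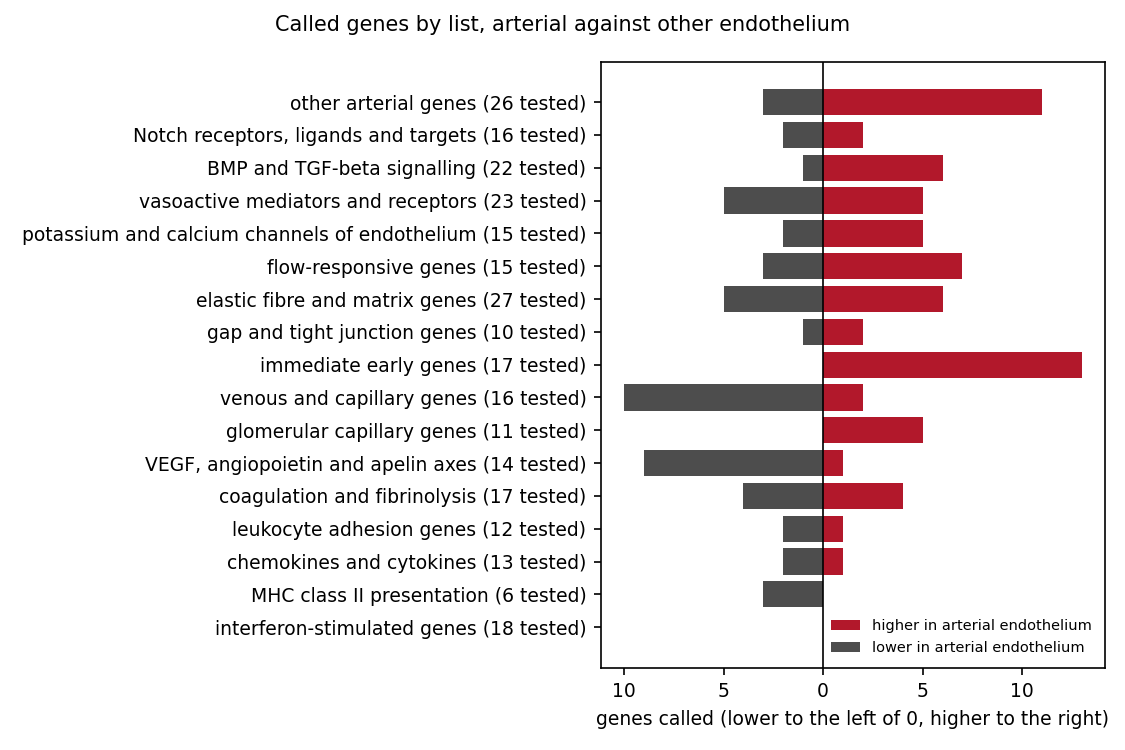
Number of genes of each list called higher (red, right of 0) or lower (grey, left of 0) in arterial endothelium against other endothelium, with the number tested beside each name. Immediate early genes reach 13 higher calls with 0 lower, venous and capillary genes 10 lower calls with 2 higher, and interferon-stimulated genes 0 in either direction.

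Of 16 tested venous and capillary genes, 10 fell and 2 rose, beside 6.27% and 5.88% of all genes, with a median of -1.09. Plvap was at 686, 1287, 137 and 501 CPM in arterial endothelium, against 4107, 4100.1, 619 and 2526 CPM in other endothelium (log2 fold change -2.18 ± 0.15, adjusted p = 5.17e-05). It was lower in arterial cells in each mouse, although the arterial values of mice 1 and 2 exceeded the value of mouse 3 in other endothelium. Rgcc, a cell cycle regulator abundant in capillaries, was at 339.7, 898, 1027 and 991 CPM in arterial endothelium, against 2598, 3801, 2408 and 8968 CPM in other endothelium (log2 fold change -2.35 ± 0.28, adjusted p = 0.000655). Esm1, which encodes the VEGF-induced proteoglycan endocan, was at 165, 312, 123 and 136 CPM in arterial endothelium, against 1048, 1363, 642 and 501 CPM in other endothelium (log2 fold change -2.27 ± 0.14, adjusted p = 3.16e-05). The venous transcription factor gene Nr2f2 fell too (-1.16 ± 0.16). Vwf, the gene of von Willebrand factor, and Igfbp7 were the 2 that rose, Vwf at 55.9, 28.4, 4.64 and 27.3 CPM in arterial endothelium, against 7.58, 6.27, 2.84 and 1.4 CPM in other endothelium. The call of Vwf (log2 fold change 2.33 ± 0.44) was lost without mouse 1.

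Of 14 tested genes of the VEGF, angiopoietin and apelin axes, 9 fell and 1 rose, beside 6.27% and 5.88% of all genes. The list median was -0.57. The 9 were Flt4, Tek, Angpt2, Nrp2, Apln, Esm1, Adgrl4, Robo4 and Ptprb. Tek lost its call without mouse 1, 2 or 4, Robo4 without mouse 2 and Adgrl4 without mouse 4. Nrp2, a coreceptor of VEGF-C, had a log2 fold change of -1.25 ± 0.21, whereas its ligand gene Vegfc rose by 1.89 ± 0.20. Kdr and Flt1 belong to the rule and were not tested.

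Coagulation and fibrinolysis genes had 4 higher and 4 lower calls of 17, beside 5.88% and 6.27% of all genes, with a median of -0.33. F2r, the thrombin receptor PAR1, was at 239.7, 348, 87.6 and 63 CPM in arterial endothelium, against 515, 611, 321 and 207 CPM in other endothelium (log2 fold change -1.34 ± 0.18, adjusted p = 0.00144). Plau, the urokinase gene, fell by a log2 fold change of -2.11 ± 0.22.

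Of 13 chemokine and cytokine genes, 1 rose (Cxcl12), 2 fell (Ccl2 and Ackr3) and 10 did not pass, beside the 12.1% of all 12157 genes that were called. Ccl2, the monocyte chemoattractant, was at 0, 0, 10.4 and 0 CPM in arterial endothelium of mice 1 to 4, against 3.54, 18.7, 261 and 15.4 CPM in other endothelium (log2 fold change -4.83 ± 0.27, adjusted p = 2.16e-05). The only mouse with Ccl2 UMIs in its arterial cells was mouse 3, which also had the most in other endothelium. Sele, the inducible adhesion molecule E-selectin, was at 18.6, 15.2, 30.8 and 5.11 CPM in arterial endothelium, against 38.4, 23.4, 79.2 and 12.9 CPM in other endothelium (log2 fold change -1.11 ± 0.18, adjusted p = 0.00334), and the call was lost after thinning. Of the other leukocyte adhesion genes, Mcam rose, Cd47 fell and 9 of 12 did not pass, and the call of Mcam was lost without mouse 1 and that of Cd47 without any 1 of the 4 mice. None of 18 interferon-stimulated genes was called by edgeR's quasi-likelihood test, with a list median of -0.08, where 3040 of the 12157 genes had an unadjusted p under 0.05 and DESeq2 called 1418 genes in all. Leaving out mouse 3 gave 3 lower calls among the interferon-stimulated genes. MHC class II genes had 3 lower of 6, H2-Aa, H2-Eb1 and Cd74, and 0 without mouse 2 or mouse 4. Leukocyte markers fell beside them, 3 of 5 neutrophil markers and 4 of 6 macrophage markers. Thinning to 1000 UMIs gave 4 lower calls for MHC class II genes, 1 for neutrophil markers and 0 for macrophage markers. The part of the leukocyte markers in the result was not tested.

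Metabolic and stress genes were called in both directions, beside the 12.1% of all genes. Hypoxia response genes had 2 higher and 1 lower of 15, or 0 and 0 after thinning to 1000 UMIs. Antioxidant genes had 1 higher and 2 lower of 18. Glycolysis genes had 0 higher and 1 lower of 13, and fatty acid genes 2 higher and 2 lower of 14. Slc2a1 was the lower gene of both the hypoxia and the glycolysis list. The calls of Epas1, Bnip3 and Nqo1 were lost without mouse 1, 2 or 4, and that of Slc2a1 without mouse 1 or 2. Those of Gpx4 without mouse 1, 2 or 3, of Mt2 without mouse 1 or 4, of Fabp5 without mouse 2 or 4 and of Plin2 without mouse 4 were lost too. Among the fatty acid genes Pparg, a nuclear receptor gene that also acts in endothelium, rose by a log2 fold change of 1.44 ± 0.18, and Slc27a3, a fatty acid transport family gene, by 2.25 ± 0.23. Of 11 p53 targets, Phlda3, an inhibitor of AKT signalling, rose to 49.1, 51.9, 56 and 93.7 CPM in arterial endothelium, against 19, 13.2, 15.1 and 15.4 CPM in other endothelium (log2 fold change 1.95 ± 0.18, adjusted p = 0.000198), Gadd45b rose by 1.20 ± 0.17, and 9 did not pass.

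Of 11 tested glomerular capillary genes, 5 rose and 0 fell, beside 5.88% and 6.27% of all genes, with a median of 0.57. Pi16, a secreted peptidase inhibitor, was at 263, 211, 13.1 and 109 CPM in arterial endothelium, against 32.6, 21.1, 1.07 and 16.1 CPM in other endothelium (log2 fold change 3.14 ± 0.14, adjusted p = 1.11e-05). The transcription factor gene Tbx3 was at 179, 132, 90.9 and 40.9 CPM in arterial endothelium, against 53.8, 32.2, 39.3 and 9.59 CPM in other endothelium (log2 fold change 1.70 ± 0.16, adjusted p = 0.00023). Gata5 rose by 2.07 ± 0.35, with 40.7, 27.7, 1.64 and 1.7 CPM in arterial endothelium, against 10.9, 4.01, 0.569 and 1.4 CPM in other endothelium. Ehd3 itself did not pass, at 883, 480.0, 41.5 and 32.4 CPM in arterial endothelium, against 480.1, 333, 49.5 and 104 CPM in other endothelium (adjusted p = 0.908). The count of rises was 2 without mouse 1 and 2 without mouse 2, and 4 rises and 2 falls were called without the cells that had an Ehd3 UMI, a setting chosen after seeing the data. In members with 3 or more arterial genes, 3 genes of the list rose and 5 fell.

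Outside the lists, the gene with the largest rise by the naming rule was Aqp1, the aquaporin 1 water channel, which descending vasa recta endothelium and proximal tubule are known for. It was at 1241, 844, 328 and 893 CPM in arterial endothelium of mice 1 to 4, against 6.32, 12.3, 13.4 and 27.1 CPM in other endothelium (log2 fold change 5.69 ± 0.42, adjusted p = 6.18e-05). Every arterial value lay above every value of other endothelium, and mouse 3 had the lowest of the arterial ones. The summed level of 7 proximal tubule markers was lower in arterial endothelium in all 4 mice, at 80.5, 58.2, 284 and 22.1 CPM, against 136, 73.1, 474 and 70.9 CPM in other endothelium. At least 2 of these occurred in 11.2, 7.10, 19.5 and 0.592% of arterial cells, against 7.36, 2.83, 20.9 and 1.43% in other endothelium. That share was higher in arterial cells in mice 1 and 2 and lower in mice 3 and 4. The part of tubular RNA in the Aqp1 level was not tested. Aqp1 UMIs were found in 23.2%, 13.6%, 21.3% and 29.0% of arterial cells, in 1.10% to 2.02% of other endothelial cells and in 0.484% to 2.09% of cells with no endothelial gene. After thinning to 1000 UMIs the shares were 11.4% to 23.5% in arterial endothelium and 0.422% to 0.913% in other endothelium.

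Hpgd, which encodes the enzyme that inactivates prostaglandins, was at 112, 40.2, 102 and 175 CPM in arterial endothelium, against 3.29, 1.54, 5.83 and 5.61 CPM in other endothelium (log2 fold change 4.60 ± 0.20). Lef1, a transcription factor of Wnt signalling, was at 184, 78.3, 66.3 and 68.1 CPM in arterial endothelium, against 2.27, 1.03, 5.55 and 7.02 CPM in other endothelium (log2 fold change 4.54 ± 0.45). Cdh13, the gene of T-cadherin, was at 125, 88, 145 and 52.8 CPM in arterial endothelium, against 5.31, 5.34, 14.3 and 2.81 CPM in other endothelium (log2 fold change 3.88 ± 0.21). These 3 genes were picked among the largest rises, and their values did not overlap between the classes. The log2 fold change of Lef1 was 5.18 without mouse 3. Nebl, which encodes the actin-binding protein nebulette, was at 346, 427, 459 and 228 CPM in arterial endothelium, against 21.7, 12.6, 68.6 and 18.2 CPM in other endothelium (log2 fold change 3.82 ± 0.33). S100a4, a calcium-binding protein, was at 135, 141, 72.3 and 807 CPM in arterial endothelium, against 3.29, 3.29, 10.6 and 83 CPM in other endothelium, highest in mouse 4 in both classes. Fam181b (5.40), Tspan8 (3.84, or 4.45 without mouse 3), Fam107a (3.81) and Csf2rb (3.23) completed the 10 genes with the largest rises. Aqp1, Fam181b, Hpgd, Lef1, Cdh13, Fam107a and Csf2rb, like Jag1 and Fbn1, passed without the mouse block too.

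Among the 10 largest falls outside the lists were those of Car8, Kcnk5, Tll1, Pde7b, Sdk1, Lbp, Inhbb, Fscn1 and Rarb. Car8, a carbonic anhydrase-related gene, was at 18.6, 21.5, 3.82 and 3.41 CPM in arterial endothelium, against 207, 166, 42.7 and 68.3 CPM in other endothelium (log2 fold change -3.33 ± 0.17, adjusted p = 1.82e-05). Kcnk5, a background potassium channel gene, was at 6.78, 10.4, 9.28 and 0 CPM in arterial endothelium, against 71.3, 59.3, 58.7 and 29.9 CPM in other endothelium (log2 fold change -2.90 ± 0.24). Inhbb, which encodes the activin beta B subunit, was at 62.7, 143, 287 and 23.8 CPM in arterial endothelium, against 380.3, 746, 1109 and 224 CPM in other endothelium (log2 fold change -2.42 ± 0.16). Arterial cells of mouse 3 held more Inhbb than other endothelial cells of mouse 4, so values overlapped between mice though not within a mouse. The other 6 of these 9 had log2 fold changes of -2.82 (Tll1) to -2.24 (Rarb).

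The members were then set against 2 narrower classes, 241 glomerular capillary cells (Ehd3 and another glomerular gene detected, no Plvap) and 4108 peritubular cells (Plvap detected, no Ehd3), both with fewer than 2 arterial genes. These comparisons share the arterial cells, so each is given with its own values. Unlike the 2 classes, the arterial cells were not filtered on Plvap or Ehd3. The part of that unequal filter in the results was not tested. Against glomerular capillary endothelium, 649 of 7918 genes passed (8.20%), 372 higher (4.70%) and 277 lower (3.50%), and 18 passed without the mouse block. The glomerular class of mouse 4 held 15 cells. Against peritubular endothelium, 1638 of 10828 genes passed (15.1%), 792 higher (7.31%) and 846 lower (7.81%), and 74 passed without the mouse block. Thinning to 1000 UMIs left 164 and 849 calls.

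**Figure D3:**
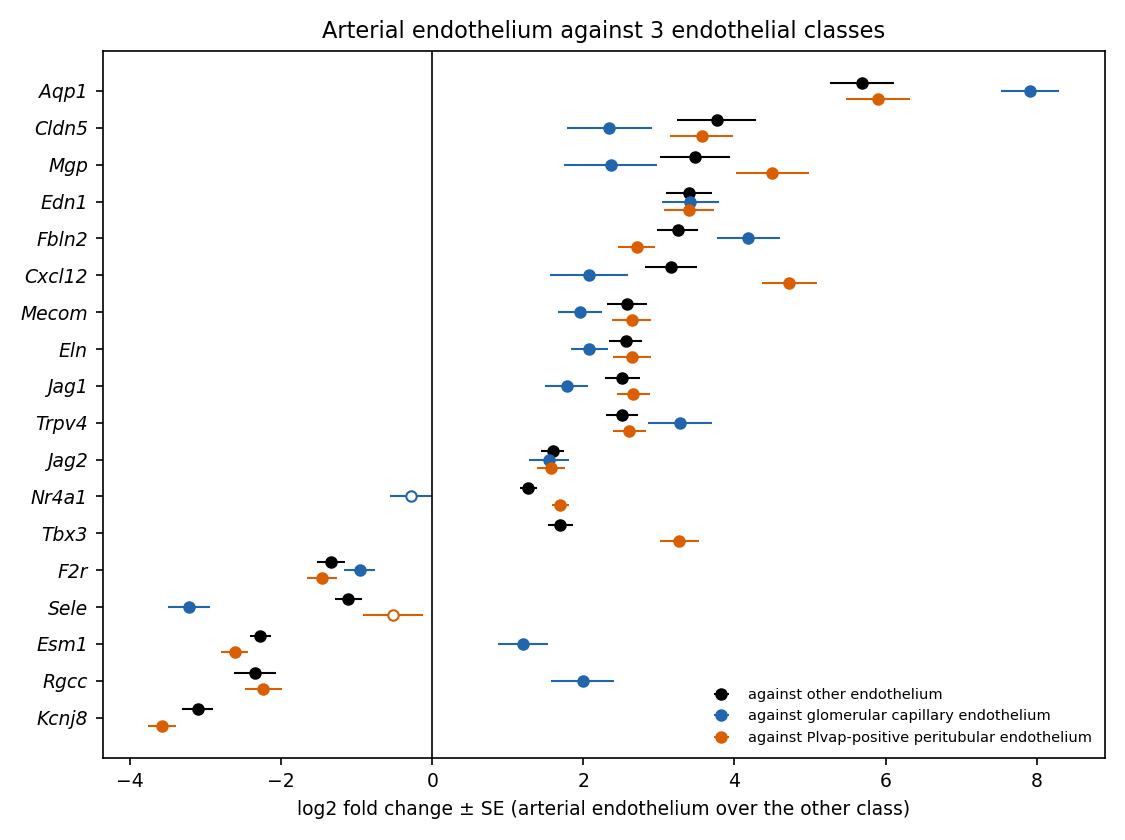
Log2 fold changes with SE of 18 genes in arterial endothelium over other endothelium (black), glomerular capillary endothelium (blue) and Plvap-positive peritubular endothelium (orange), filled where the adjusted p was under 0.05. Aqp1, Edn1, Mecom, Jag1 and Eln lie right of 0 in all 3 comparisons. Esm1 and Rgcc change sign against glomerular endothelium, whose cells, unlike the arterial ones, were chosen for no Plvap.

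Edn1, Jag1, Jag2, Mecom, Cxcl12, Vegfc, Eln, Fbn1, Fbln2, Mgp, Cldn5, Jam2 and Trpv4 rose in arterial endothelium in each of the 2 narrower comparisons. Edn1 was at 208 to 1061 CPM in arterial endothelium and 3.36 to 40.7 CPM in glomerular capillaries (log2 fold change 3.42 ± 0.38), and at 22.4 to 51.5 CPM in peritubular cells (log2 fold change 3.40 ± 0.33). Without mouse 3 the log2 fold changes against glomerular capillaries were 4.21 for Edn1, 4.78 for Fbln2, 4.78 for Trpv4, 3.28 for Vegfc and 3.10 for Mgp, where all 4 mice gave 3.42, 4.19, 3.28, 2.66 and 2.36. Mgp was at 1.48 without mouse 4 and Vegfc at 2.04 without mouse 1. In that comparison the call of Cldn5 was lost without mouse 2 or 4, that of Cxcl12 without mouse 3 or 4 and that of Fbn1 without mouse 1 or 3. Efnb2, the ephrin B2 ligand of arterial endothelium, averaged 147 ± 102 CPM in arterial endothelium and 307 ± 204 CPM in glomerular capillaries (SD, n = 4 mice), was lower in each mouse, and fell by a log2 fold change of -0.94 ± 0.20 (adjusted p = 0.00452). It rose against peritubular cells. The VEGF coreceptor gene Nrp1 also fell against glomerular capillaries (-1.17 ± 0.23). Rgcc and Esm1, lower in arterial endothelium than in peritubular cells, were higher than in glomerular capillaries, with log2 fold changes of 1.99 ± 0.42 for Rgcc and 1.20 ± 0.33 for Esm1 (adjusted p = 0.00479 and 0.0304). The log2 fold change of Rgcc was 1.20 without mouse 2, and the call of Esm1 was lost without mouse 1, 2 or 4. Glomerular cells were chosen for no Plvap and arterial cells were not, and the part of this choice in the change of sign was not tested.

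Against glomerular capillaries the largest rise was again that of Aqp1, at 1241, 844, 328 and 893 CPM in arterial endothelium, against 6.72, 2.73, 1.23 and 0 CPM in glomerular capillaries (log2 fold change 7.91 ± 0.38, adjusted p = 5.49e-10). S100a4, Tspan8, Fam181b, Efhd1 and Prom1, which encodes the membrane protein CD133, followed with log2 fold changes of 6.56 to 4.41, and Prom1 was at 8.39 without mouse 3. Lpl, the lipoprotein lipase gene, was at 784, 704, 17.2 and 32.4 CPM in arterial endothelium, against 3069.9, 4673, 288 and 2699 CPM in glomerular capillaries (log2 fold change -3.42 ± 0.42, adjusted p = 4e-05). Sele was at 18.6, 15.2, 30.8 and 5.11 CPM in arterial endothelium, against 326, 161, 160.5 and 141 CPM in glomerular capillaries, with no overlap (log2 fold change -3.22 ± 0.28, adjusted p = 1.56e-06). Agtr1a, an angiotensin II receptor gene, fell by a log2 fold change of -2.97 ± 0.29, beside Cntfr, Meg3 and N4bp2l1. Several of these values depended on 1 mouse. Without mouse 1 the log2 fold changes were -4.08 for Lpl, -4.03 for Cntfr, -3.74 for Meg3, 4.18 for Tspan8, 4.21 for Fam181b and 3.78 for Prom1, and they were -2.38 for Cntfr without mouse 2 and -2.18 for Meg3 and -3.80 for Sele without mouse 3. Smooth muscle and pericyte markers fell here, 6 of 8 tested, beside 3.50% of all genes. Myh11 was at 71.2, 74.8, 89.5 and 5.11 CPM in arterial endothelium, against 134, 415, 241 and 0 CPM in glomerular capillaries. In mice 1 and 2, 1 arterial cell each held 94.0% and 91.7% of the Myh11 UMIs. The part of these markers in the fall of Agtr1a was not tested. When cells with 2 or more markers of another lineage were left out, 221 genes passed.

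None of 14 immediate early genes passed against glomerular capillaries (edgeR, list median 0.18; 1420 of the 7918 genes had an unadjusted p under 0.05), while 13 of 17 rose against peritubular cells (list median 0.96). The difference between the 2 comparisons was not tested. Over all genes, 4.70% rose against glomerular capillaries and 7.31% against peritubular cells. Interferon-stimulated genes had 5 of 18 higher against glomerular capillaries (Ifit1, Irf7, Gbp2, Gbp5 and Rsad2, list median 0.81) and 0 of 18 called against peritubular cells (edgeR, list median -0.12; 3048 of the 10828 genes had an unadjusted p under 0.05). The calls of Ifit1 and Gbp2 were lost without mouse 1, 2 or 4 and that of Irf7 without mouse 2, and the log2 fold change of Rsad2 was 2.60 without mouse 3.

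Against peritubular cells Aqp1, Fam181b, Hpgd, Cdh13, Mgp and Lpl rose most by the naming rule. Mgp was at 707, 1119, 482 and 4967 CPM in arterial endothelium, against 98.3, 26.6, 35 and 76.1 CPM in peritubular cells (log2 fold change 4.50 ± 0.48, adjusted p = 0.000194). Lpl, lower than in glomerular capillaries, was higher than in peritubular cells, at 14.8, 5.05, 9.2 and 2.2 CPM there, a log2 fold change of 4.39 ± 0.86 (3.28 without mouse 2 and 6.14 without mouse 3) that did not pass without mouse 1 or without the cells with an Ehd3 UMI. Ccl2, Kcnj8, Car8, Apln (-3.15, or -4.06 without mouse 1), Kcnk5 and Tll1 (-2.96, or -3.60 without mouse 2) fell most, Kcnj8 to 8.47, 9.7, 20.5 and 1.7 CPM in arterial endothelium, against 68.7, 119, 231 and 63.8 CPM in peritubular cells (log2 fold change -3.57 ± 0.19, adjusted p = 4.11e-06). All 7 tested smooth muscle and pericyte markers rose here (median 2.37), as did the fibroblast genes Dcn and Col1a2, beside 7.31% of all genes. In mouse 3, 1 arterial cell held 86.3% of the Col1a2 UMIs. Acta2, smooth muscle actin, was at 191, 197, 309.6 and 35.8 CPM in arterial endothelium, against 11.7, 12.8, 114 and 1.89 CPM in peritubular cells (log2 fold change 2.86, and 4.02 without mouse 3). The part of these markers in the other rises was not tested, and 1033 genes passed when cells with 2 or more markers of another lineage were left out.

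Within the members, the 129 cells with a Gja5 UMI (29, 32, 33 and 35 in mice 1 to 4) were compared with the 765 without one. Gja5 encodes connexin 40, which in the renal vasculature is known from preglomerular arteries and arterioles. Gja5-positive cells expressed more Aqp1, Mgp, Cldn5, Eln and Vegfc, and less Nebl, Igfbp5, Meox1, Klf2 and Klf4. Of 6080 genes tested, 306 passed (5.03%), 149 higher (2.45%) and 157 lower (2.58%), with a median log2 fold change of -0.02. Without the mouse block 0 passed by edgeR's quasi-likelihood test, where 195 had an unadjusted p under 0.05, and DESeq2 with the block called 216. Calls fell to 70 after thinning, to 140 without mouse 2 and to 157 without mouse 4. Gja5-positive cells had median UMI counts of 10602, 9525, 7858 and 3990 in mice 1 to 4, and Gja5-negative cells of 7862, 7798, 7154 and 2664. Gja5-negative members needed 2 of the other 4 arterial genes, Gja5-positive members 1.

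**Figure D4:**
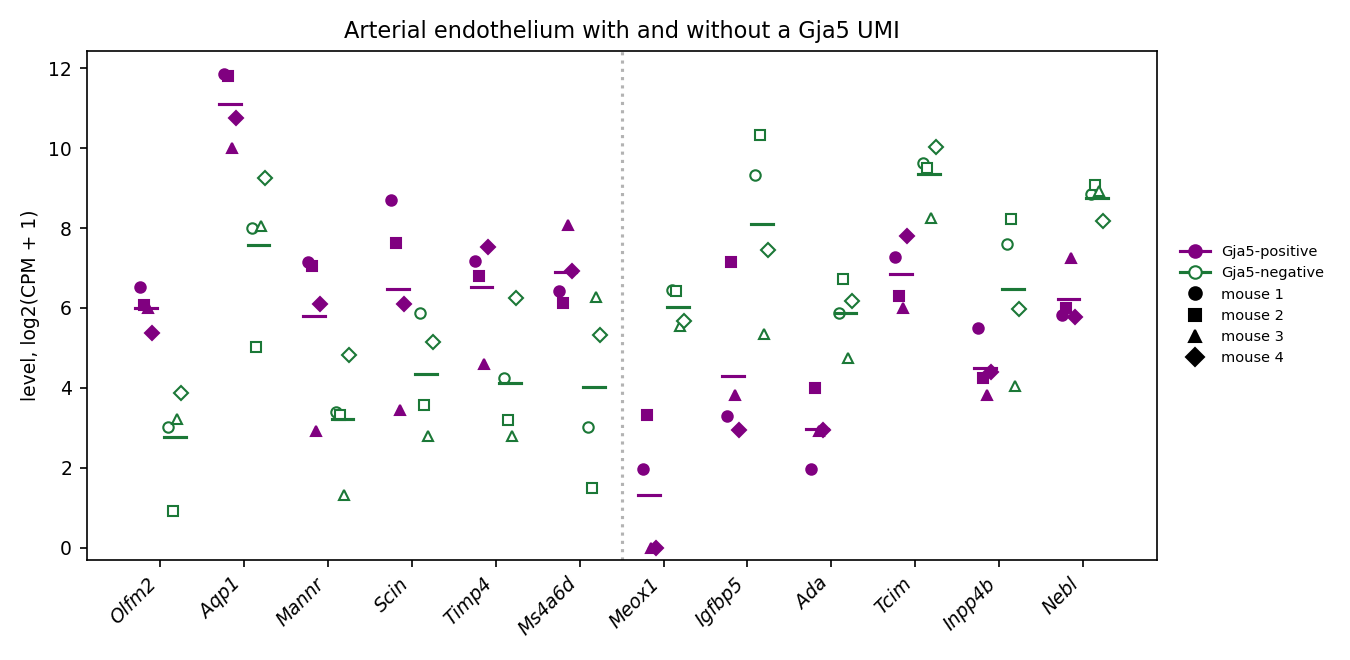
Levels as log2(CPM + 1) of the 6 genes highest and the 6 lowest by the naming rule in Gja5-positive arterial cells (left of each pair, filled purple) against Gja5-negative arterial cells (right, open green), 1 symbol per mouse with the mean as a bar. Aqp1 and Olfm2 lie higher and Tcim and Nebl lower in Gja5-positive cells in all 4 mice without overlap.

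Aqp1 was at 3675, 3559, 1029.6 and 1736 CPM in Gja5-positive cells of mice 1 to 4, against 257, 31.5, 265 and 607 CPM in Gja5-negative cells (log2 fold change 3.34 ± 0.66, adjusted p = 0.0115). Olfm2, a secreted olfactomedin family gene, was at 91.2, 66.2, 62.5 and 40.4 CPM in Gja5-positive cells, against 7.14, 0.9, 8.34 and 13.7 CPM in Gja5-negative cells (log2 fold change 3.35 ± 0.45, adjusted p = 0.00166). Neither gene overlapped between the groups, and the difference in Aqp1 was smallest in mouse 4. The log2 fold change of Aqp1 was 2.45 without mouse 2 and 4.08 without mouse 4. The long non-coding RNA Mannr, the actin-severing gene Scin, the metalloproteinase inhibitor gene Timp4 and Ms4a6d were the other 4 of the 6 largest rises by the naming rule, at log2 fold changes of 3.10 to 2.46, with Ms4a6d at 3.05 without mouse 3.

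Meox1, a homeobox transcription factor gene, was at 2.94, 9.03, 0 and 0 CPM in Gja5-positive cells, against 85.7, 85.5, 45.5 and 50.2 CPM in Gja5-negative cells (log2 fold change -4.21 ± 0.48, adjusted p = 0.00102). Igfbp5, an IGF-binding protein gene, was at 8.83, 141, 13.2 and 6.73 CPM in Gja5-positive cells, against 636, 1274, 39.9 and 173 CPM in Gja5-negative cells (log2 fold change -3.69 ± 0.41, adjusted p = 0.000846). Nebl was at 55.9, 63.2, 151 and 53.8 CPM in Gja5-positive cells, against 463, 535, 487 and 287 CPM in Gja5-negative cells (log2 fold change -2.45 ± 0.24, adjusted p = 0.000415). Without mouse 2 the log2 fold changes of Meox1 and Igfbp5 were -5.50 and -4.73, and that of Igfbp5 was -3.02 without mouse 1. Mouse 3 had the highest Nebl among the Gja5-positive groups, still below all 4 Gja5-negative ones. Ada, which encodes adenosine deaminase, Tcim and the lipid phosphatase gene Inpp4b completed the 6 largest falls, Inpp4b at -2.45, or -1.68 without mouse 2.

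Of 14 flow-responsive genes, 0 rose and 6 fell in Gja5-positive cells (Klf2, Klf4, Thbd, Pi16, Tek and Mef2a). These counts stand beside 2.45% and 2.58% of all genes, with a list median of -0.59. The call of Mef2a was lost without mouse 1, 2 or 4. Klf4 was at 494, 211, 247 and 337 CPM in Gja5-positive cells, against 1261, 1058, 455 and 741 CPM in Gja5-negative cells (log2 fold change -1.38 ± 0.20, adjusted p = 0.00239). Thbd, the thrombin cofactor thrombomodulin, was at 268, 232, 306 and 74 CPM in Gja5-positive cells, against 773, 812, 521 and 139 CPM in Gja5-negative cells (log2 fold change -1.25 ± 0.19, adjusted p = 0.00253). Of 14 immediate early genes, 4 fell (Junb, Atf3, Ier2 and Ier3) and 0 rose, and the heat shock genes Hspa1a, Hspa1b and Bag3 fell, 3 of 13. Without mouse 4 the calls of all 4 immediate early genes and of Hspa1a and Hspa1b were lost.

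Elastic fibre and matrix genes had 5 higher (Eln, Mgp, Hspg2, Col18a1 and Ccn2) and 1 lower (Timp3) of 19. These counts stand beside 2.45% and 2.58% of all genes, with a list median of 0.34. Mgp was at 1195, 2702, 1842 and 7134 CPM in Gja5-positive cells, against 510.4, 645, 359 and 4232 CPM in Gja5-negative cells (log2 fold change 1.65 ± 0.25, adjusted p = 0.00245). Cldn5 was at 1077, 833, 303 and 2099.9 CPM in Gja5-positive cells, against 170.1, 51.3, 156 and 1252 CPM in Gja5-negative cells (log2 fold change 2.06 ± 0.43, adjusted p = 0.0163). Both were highest in mouse 4 in each group, and the log2 fold change of Cldn5 was 1.46 without mouse 2. The call of Eln was lost without mouse 2 or 4 and that of Timp3 without mouse 1, 2 or 4. Among arterial list genes Vegfc and Mecom rose and 4 of 21 fell, while Edn1 (0.65 ± 0.18, adjusted p = 0.0592) and Jag1 (0.83 ± 0.25, adjusted p = 0.0797) did not pass. None of 13 Notch pathway genes was called by edgeR, where 913 of the 6080 genes had an unadjusted p under 0.05.

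Of 14 venous and capillary genes, 3 rose (Fabp4, Gpihbp1 and Igfbp7) and 4 fell (Plvap, Nrp2, Rgcc and Plpp1) in Gja5-positive cells. These counts stand beside 2.45% and 2.58% of all genes, with a list median of -0.30. Fabp4, a fatty acid-binding protein gene of capillary endothelium, was at 9100.3, 5677, 6059 and 27111 CPM in Gja5-positive cells, against 2340.1, 2659, 3210.2 and 17306 CPM in Gja5-negative cells (log2 fold change 1.20 ± 0.20, adjusted p = 0.00522). It was higher in each mouse, and of these 7 genes it was the one whose call passed without each of the 4 mice. Plvap was at 262, 178, 95.4 and 155 CPM in Gja5-positive cells, against 858, 1619, 141 and 618 CPM in Gja5-negative cells (log2 fold change -1.90 ± 0.31, adjusted p = 0.00387). Ehd3 was at 159, 90.3, 36.2 and 33.7 CPM in Gja5-positive cells, against 1175, 597, 42 and 31.9 CPM in Gja5-negative cells (log2 fold change -2.15 ± 0.39, adjusted p = 0.00706), lower in 3 of 4 mice by a wide margin in mice 1 and 2. The call of Plvap was lost without mouse 4 and that of Ehd3 without mouse 2. With Ehd3-positive cells left out of both groups, 286 genes passed. The renin gene Ren1 was called higher (5.10 ± 1.17), at 41.2, 53672, 4085 and 20.2 CPM in Gja5-positive cells, against 44, 573, 34.2 and 16 CPM in Gja5-negative cells. The call was lost without mouse 2, 3 or 4. In mouse 2, 1 arterial cell held 59.5% of the 18476 Ren1 UMIs, and in mouse 3 1 cell held 88.6% of 1357. Leaving out cells with markers of another lineage removed mouse 2 from the fit, since 8 Gja5-positive cells remained there, and left 97 calls.

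Aqp1 and Nebl marked largely different members. Aqp1 UMIs were found in 193 arterial cells and Nebl UMIs in 471, but both in 42. Nebl was detected in 31, 21.7, 26.1 and 8.16% of Aqp1-positive cells of mice 1 to 4, against 45.8, 58.2, 72.3 and 45.8% of Aqp1-negative cells. It was less frequent in Aqp1-positive cells in every mouse. Aqp1-positive cells had median UMI counts of 12588, 9539, 8954 and 3592 and Aqp1-negative cells of 7488, 7810, 6946 and 2670.5. Aqp1 in turn was detected in 65.5, 46.9, 51.5 and 45.7% of Gja5-positive cells, against 10.4, 5.84, 18.8 and 24.6% of Gja5-negative cells. Ehd3 UMIs were found in 31, 21.7, 17.4 and 0% of Aqp1-positive cells, against 54.2, 56.2, 21.5 and 11.7% of Aqp1-negative cells. Slc14a1, the urea transporter gene of descending vasa recta, was found in 69, 39.1, 18.5 and 10.2% of Aqp1-positive cells, against 0, 0.685, 2.65 and 0% of Aqp1-negative cells. These genes were chosen after their values were seen, and the shares are given as a description with no test.

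**Figure D5:**
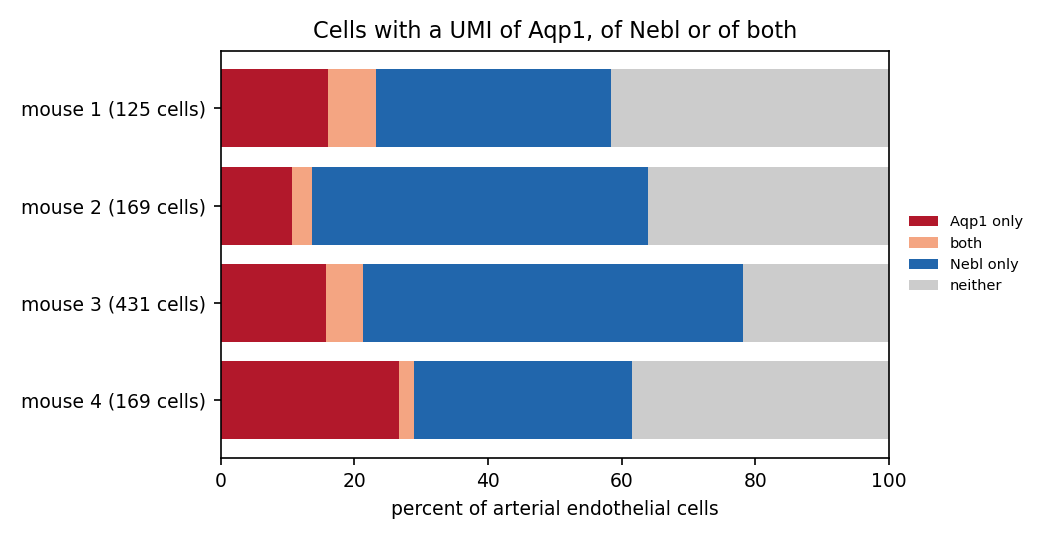
Percent of the arterial endothelial cells of each mouse with a UMI of Aqp1 only (red), of both genes (light red), of Nebl only (blue) and of neither (grey). The cells with both genes are the smallest class in each mouse, 9, 5, 24 and 4 cells in mice 1 to 4.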

How the data were processed

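Single-cell RNA libraries of 4 kidneys, 1 per mouse, were analysed. The authors deposited raw UMI counts per gene and barcode, made with Cell Ranger 9.0.1 per the file headers, and the submitters' processing notes also name Seurat 4.1.1. The genome build and any removal of doublets before deposit are not stated in the labels or headers. The files list 57132 features.

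Barcodes with at least 500 UMIs and 300 genes and a mitochondrial share under 50% were kept. Counts were summed per mouse and class (classes of at least 10 cells) and tested with edgeR 4.0.16 (R 4.3.3, limma 3.58.1, TMM factors, filterByExpr, quasi-likelihood F test, two-sided), with Benjamini-Hochberg adjustment over all genes tested and a threshold of 0.05. The mouse was a block because both classes come from the same mouse, with replicate numbers as the labels give them. Genes that define the compared classes were dropped after normalization and not tested. The members and the gene lists were chosen with earlier results of these data known, so no list is independent evidence.

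Named genes were, per list, up to 4 called genes with the same direction in every mouse, ranked by the size of the log2 fold change, and outside the lists the 10 highest and 10 lowest with at least 50 CPM. In the other comparisons they were the 6 highest and 6 lowest. A few genes that this rule names are not reported here. Other list genes named with values were chosen after their values were seen. Overlap between classes is stated for single genes, and its share over all genes tested was not counted. The procedure was also run on simulated counts, with the same dispersion for every gene and known changes planted in genes of at least 50 CPM. That run does not cover changes in low-count genes or genes carried by single cells, and its outcome is not given here. Alternatives were DESeq2 1.42.0 and its size factors, no filter, no block, each mouse left out, thinning to 1000 UMIs, stricter cell filters, and leaving out cells with 2 markers of another lineage, or with high doublet scores. Scrublet (in scanpy 1.11.5) called 0, 111, 1 and 1 doublets in mice 1 to 4, so in mice 1, 3 and 4, where under 0.5% were called, it did not work, and the highest scores were left out instead as an alternative. Intervals of shares are exact binomial ones (scipy 1.17.1).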

Additional observations from a re-analysis of the deposited data

Results flagged for a closer look

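Dixon's criterion was applied to 117 groups of values, gene levels in arterial endothelium and the shares of members. In 14 groups, all of them gene levels, 1 mouse stood apart from the other 3, and chance gives about 1 in 20 such groups. Mouse 4 stood apart upward in 7 of them. Edn1 was at 1061 CPM there, against 208 to 297 CPM in the other mice, Mgp at 4967 (482 to 1119), S100a4 at 807 (72.3 to 141), the chaperone gene Dnajb1 at 213 (70.0 to 71.0), Phlda3 at 93.7 (49.1 to 56.0), and the macrophage markers C1qa and C1qb at 73.2 (1.36 to 7.62) and 80.1 (3.28 to 7.62). Mouse 3 stood apart in 5, with Nlrc5, a regulator of MHC class I genes, at 140 CPM (10.2 to 17.8), the complement inhibitor gene Serping1 at 370 (13.6 to 69.3), Ccl2 at 10.4 (0 in each of the others), the podocyte marker Ptpro at 5.19 (0 to 0.693) and, downward, Lbp at 16.7 (39.2 to 43.6). Mouse 1 stood apart in Lef1 at 184 CPM (66.3 to 78.3) and in the thick ascending limb marker Slc12a1 at 113 (3.28 to 7.62). Mouse 4 was also the shallowest library, and the part of depth in these values was not tested.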

How the results depend on the processing

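The counts of called genes depended most on the mouse block. Without the replicate block, 33 genes were called against other endothelium, 18 against glomerular capillaries, 74 against peritubular cells and 0 between Gja5-positive and Gja5-negative cells, instead of 1477, 649, 1638 and 306. Leaving out 1 mouse gave 840 to 1730, 432 to 662, 963 to 1484 and 140 to 323 calls in the same order, and thinning to 1000 UMIs gave 856, 164, 849 and 70. Leaving out cells with markers of other lineages gave 221 calls against glomerular capillaries, 1033 against peritubular cells and 97 between the Gja5 groups. Without a filter on low counts there were 1118 calls against glomerular capillaries and 644 between the Gja5 groups. The mean share of members was 2.96% of the endothelium and 0.497% of kept cells with the rule applied to thinned cells, 4.86% and 0.842% with 3 or more arterial genes, and 10.2% to 12.4% and 1.69% to 2.34% with 1 mouse left out. No named gene reported here reversed under the alternatives run. The causes were not tested. Depth limits the absolute share and genes of few UMIs, and 4 mice of 1 group allow no statement on contrast.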
